A study of Homo sapiens with 16 samples.

Results

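The genes described here are 10 of the 60623 genes in the expression values of a gut-liver chip study, listed by name as components of the protein-folding machinery of the endoplasmic reticulum (ER). The list was drawn up with earlier results of these data known, its members were found by gene symbol, and all 10 were present and passed the filter on low values in both cell lines. HSPA5, the ER member of the Hsp70 family (also called BiP), served as the reference for the other members. The others were its co-chaperones HYOU1 and DNAJC3, the ER Hsp90 protein HSP90B1, the lectin chaperones CALR and CANX, and the disulfide isomerases P4HB, PDIA3, PDIA4 and PDIA6.

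The 16 libraries hold polyadenylated RNA of 2 human tumour lines grown in microfluidic chambers, Caco-2 from a colorectal adenocarcinoma as the gut side and HepG2 from a hepatocellular carcinoma as the liver side. Each line was kept alone (mono-culture) or with the other line in a closed loop of circulating medium (co-culture), as an untreated control or with 1 mM free fatty acids (FFAs), a palmitic and oleic acid mixture given in a medium with albumin free of fatty acids. This made 8 groups of 2 replicates. The labels of the FFAs samples place sampling 1 day after FFAs were given, and the control samples carry no day. Every sample title, of controls too, begins with the letters LTC, which are not explained in the sources used here. The study also describes mRNA sequencing after a longer treatment, and which treatment these libraries belong to could not be settled. Every sample is labelled as one of the lines, although the extraction text in the labels names primary myoblasts as the RNA source, and both lines are tumour lines that lack part of the functions of hepatocytes and enterocytes. The study's text says that mRNA sequencing was repeated in independent experiments, but the labels do not tie the replicates to them, so p-values cover only the spread between these libraries, which may in part be technical.

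The ER lumen is where secreted and membrane proteins fold, form disulfide bonds and receive their glycans. HSPA5 binds exposed hydrophobic stretches in cycles driven by ATP, DNAJC3 stimulates its ATPase, HYOU1 exchanges its nucleotide, and HSPA5 also binds the stress sensors of the unfolded-protein response. When unfolded proteins build up, that response raises transcription of many of these genes through ATF6 and XBP1. Hepatocytes secrete much of the plasma protein pool and depend on this machinery, and saturated fatty acids are a known trigger of ER stress in liver cells.

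The ER stress response element is shown first because it is a DNA element that several members share. Promoter windows of 300 bases (RefSeq, GRCh38.p14) were found for 9 of the 10 members, all but PDIA3. Both strands were searched for the element, written as CCAAT, then 9 bases of any kind, then CCACG. It lay in the windows of HSPA5, HSP90B1 (2 copies), CALR, CANX and PDIA6, 5 of 9 members, against 25 of 27305 genes (0.0916%). The shorter form, written as ATTGG, then 1 base of any kind, then CCACG, has the same CCAAT box turned to the other strand. It lay in 2 copies in HYOU1 and in 19 genes in all (0.0696%). The windows of DNAJC3, P4HB and PDIA4 held neither spelling, which says only that these letters were not in those windows. Each element is given on the strand on which it matched, with its 2 boxes in capitals and the spacer in lower case. It lies 66 to 48 bases before the start in HSPA5 (chr9:125241391-125241409, gene strand), 194 to 176 and 89 to 71 bases before it in HSP90B1 (chr12:103930216-103930234, gene strand, and chr12:103930321-103930339, opposite strand), 225 to 207 in CALR (chr19:12938384-12938402, opposite strand), 151 to 133 and 189 to 171 before different annotated starts of CANX and across another (chr5:179698778-179698796, gene strand), 86 to 68 in PDIA6 (chr2:10812853-10812871, gene strand), and 79 to 69 and 185 to 175 in HYOU1 (chr11:119057274-119057284 and chr11:119057380-119057390, opposite strand).
HSPA5: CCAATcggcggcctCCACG
HSP90B1, far copy: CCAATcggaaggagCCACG
HSP90B1, near copy: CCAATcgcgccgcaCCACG
CALR: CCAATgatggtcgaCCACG
CANX: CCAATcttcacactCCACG
PDIA6: CCAATgagccgcagCCACG
HYOU1, both copies: ATTGGACCACG

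For HSPA5 and HYOU1 the promoter around the element is given on the gene's strand, 5′ to 3′, with the boxes of the element in capitals, and for PDIA4, which rose with HSPA5 in HepG2 without this element in its window, the stretch before its first annotated exon is given for comparison. The stretches are chr9:125241383-125241593 for HSPA5, chr11:119057228-119057455 for HYOU1 and chr7:149028663-149028740 for PDIA4 (minus strand of GRCh38 in each), and end where the gene's first exon in GENCODE begins, which lies before the RefSeq start from which the distances above were counted. The PDIA4 stretch holds 78 bases, against 211 for HSPA5 and 228 for HYOU1. Most of the PDIA4 window lies within the gene as annotated in GENCODE, and bases farther upstream were not searched.
HSPA5: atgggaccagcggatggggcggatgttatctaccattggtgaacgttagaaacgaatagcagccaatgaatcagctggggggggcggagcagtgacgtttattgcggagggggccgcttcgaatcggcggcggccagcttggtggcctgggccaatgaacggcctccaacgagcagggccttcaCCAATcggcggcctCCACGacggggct
HYOU1: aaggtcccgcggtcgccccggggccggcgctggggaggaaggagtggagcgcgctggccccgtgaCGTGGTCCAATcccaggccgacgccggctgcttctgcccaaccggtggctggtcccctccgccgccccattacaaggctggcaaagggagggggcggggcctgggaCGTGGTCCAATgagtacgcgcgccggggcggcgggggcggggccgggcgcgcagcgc
PDIA4: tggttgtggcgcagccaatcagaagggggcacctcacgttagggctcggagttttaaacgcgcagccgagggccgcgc

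Expression is given as CPM, which scales every library to the same total of reads without dividing by transcript length, so levels are compared between samples of a gene and not between genes. Libraries held 49634 to 1657418 reads. The HepG2 co-culture FFAs libraries were the shallowest in that line, with 147096 and 49634 reads, where 1 read stood for 6.80 and 20.1 CPM. Of 11 hepatocyte markers 10 were higher in every HepG2 library than in any Caco-2 library, the exception being TTR. Of 9 intestinal markers only CDH17 and TSPAN8 separated the lines that way, and CDX1 and ISX were at 0 in every Caco-2 library. The intestinal markers summed to 76.4 to 148 CPM in Caco-2 and to 0 to 9.52 CPM in HepG2. Copies close to a member took few reads, PDIA3P1 having 2.92% as many as PDIA3 in Caco-2 and 5.41% in HepG2. Other annotated genes overlap every member but HSPA5 and PDIA4, and use of strand in counting is not given in the sources used here.

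The folding genes took a larger share of the HepG2 transcriptome than of the Caco-2 transcriptome. Together the 10 members took 0.215% and 0.185% of reads in the 2 Caco-2 mono-culture control libraries and 0.635% and 0.595% in those of HepG2. With FFAs the HepG2 share was 0.864% and 0.881% in mono-culture, against 1.35% and 1.18% in co-culture. The shallowest library, the second of the last pair, had an exact 95% binomial interval of 1.09% to 1.28%, which like all such intervals here covers counting error only. In HepG2 the FFAs libraries were above both control libraries in each culture. In Caco-2 all 8 libraries lay between 0.150% and 0.215%, with the co-culture FFAs libraries, at 0.182% and 0.150%, the lowest.

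**Figure D1:**
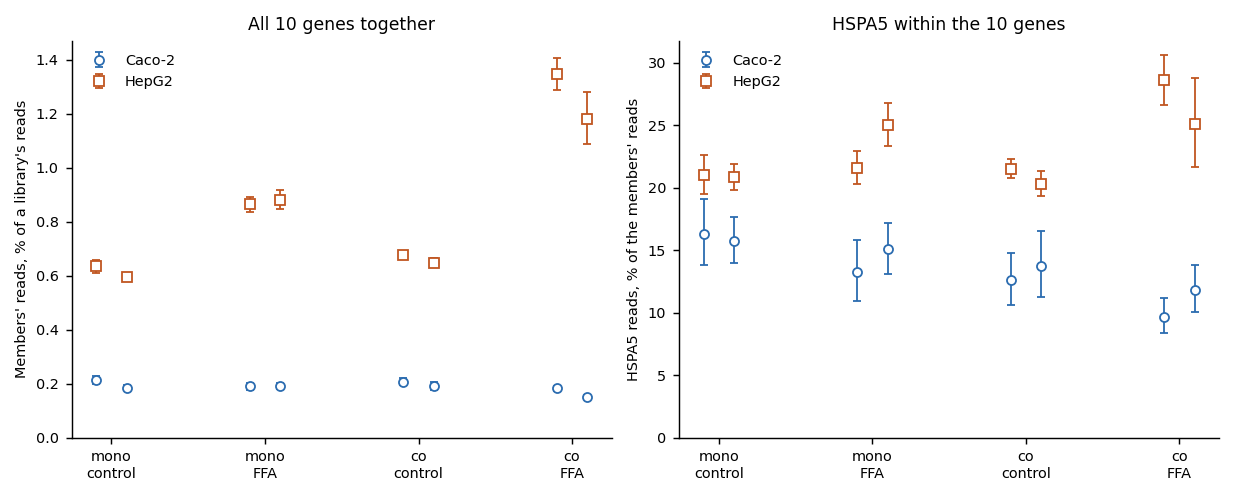
Percentage of each library's reads taken by the 10 ER folding genes together (left) and percentage of those genes' reads that belong to HSPA5 (right), by group, with a point per library and exact 95% binomial intervals. On the left HepG2 libraries sit between 0.595% and 1.35%, all above the Caco-2 libraries, and on the right HSPA5 ranges from 9.68% in Caco-2 co-culture with FFAs to 28.6% in HepG2 co-culture with FFAs.

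HSPA5 (ENSG00000044574) was highest in co-culture with FFAs in HepG2 and lowest in the same group in Caco-2. In HepG2 the 2 libraries of each group read 1335 and 1240.4 CPM in mono-culture control, 1457 and 1318 in co-culture control, 1868 and 2205 in mono-culture FFAs, and 3854 and 2962 in co-culture FFAs. The control groups overlapped each other, and both FFAs groups lay above all controls without overlap. In Caco-2 the same gene read 350.3 and 291 CPM in mono-culture control, 252 and 289 in mono-culture FFAs, 262 and 263 in co-culture control, and 176 and 177 in co-culture FFAs. There the co-culture FFAs libraries were the lowest and the mono-culture controls the highest, with the groups in between overlapping.

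**Figure D2:**
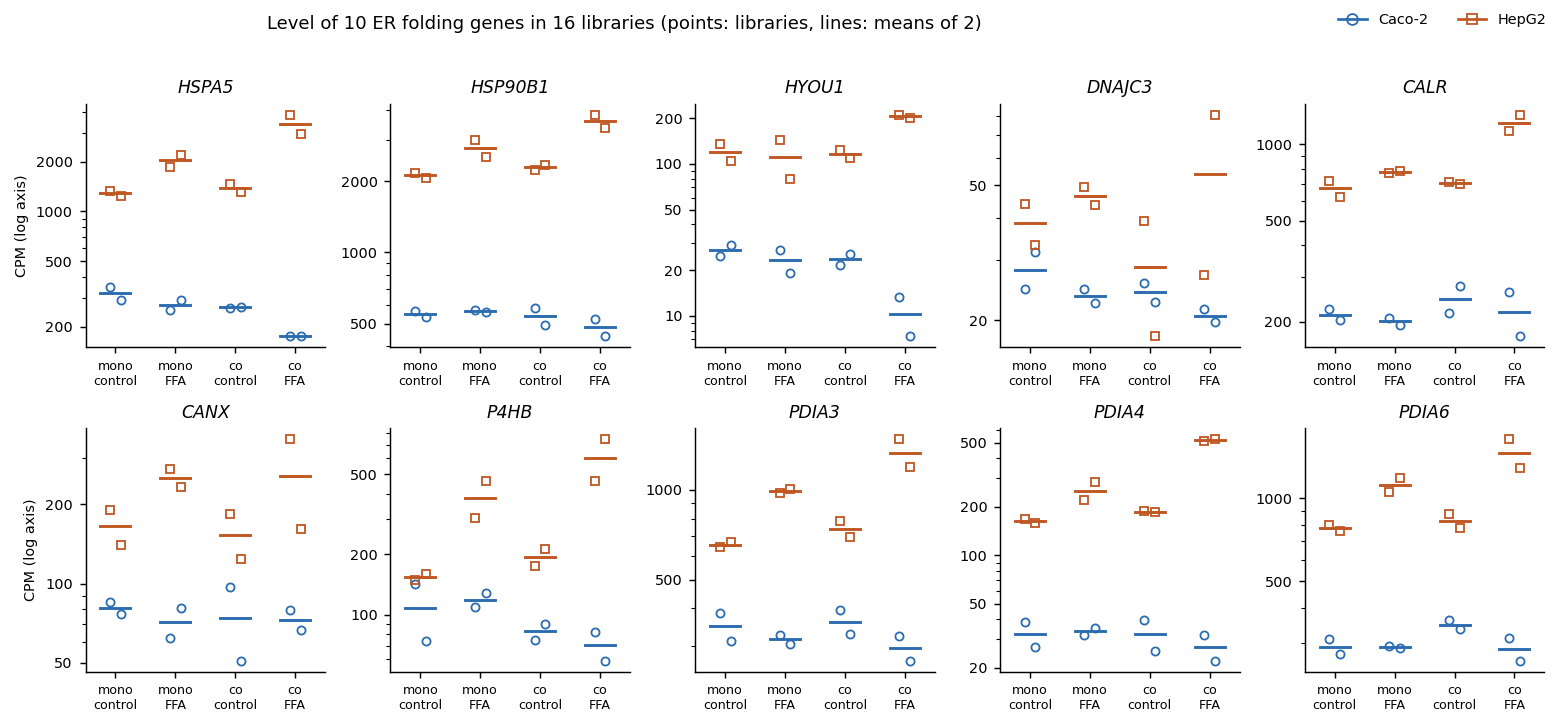
CPM of each member in the 16 libraries on a log scale, over the 4 culture and treatment groups, with circles for Caco-2, squares for HepG2 and short lines at the means of 2 libraries. HepG2 libraries lie above all Caco-2 libraries for every member except DNAJC3, and HSPA5 reaches 3854 CPM in HepG2 co-culture with FFAs against 176 CPM in Caco-2 co-culture with FFAs.

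Without FFAs and in mono-culture, 7 members were higher in HepG2 than in Caco-2. In 1 limma fit over all 16 libraries (on log2 of CPM + 1, with Benjamini-Hochberg adjustment over 17544 genes), the mono-culture control difference passed an adjusted p of 0.05 for these 7 of 10, where 4.78% of all genes passed in that direction. HSPA5 was higher by 2.01 on the log2 scale (SE 0.144, limma adjusted p = 5.48e-07), from 321 ± 41.6 to 1288 ± 66.7 CPM (SD, n = 2). HSP90B1, the ER Hsp90 protein with a narrow set of clients that includes integrins and Toll-like receptors, was higher by 1.95 (SE 0.116, limma adjusted p = 8.56e-08), from 548 ± 22.2 to 2119.6 ± 68.4 CPM. PDIA4, a disulfide isomerase, differed by 2.30, HYOU1 by 2.10, CALR by 1.64, PDIA6 by 1.42 and PDIA3 by 0.92.

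CANX, the membrane-bound lectin chaperone, differed by 1.01 (limma adjusted p = 0.111), P4HB by 0.58 (0.327) and DNAJC3 by 0.44 (0.681), and these 3 did not pass. Over all 8 libraries of each line, 9 of 10 members were higher in every HepG2 library than in any Caco-2 library, a pattern that held for 4.3% of all genes. DNAJC3 overlapped, at 18.0 to 80.6 CPM in HepG2 and 19.7 to 31.7 CPM in Caco-2. The median difference of the members was 1.53, against 0 for all genes tested. CPM is a share of a library's reads, so these values show neither the number of cells nor the amount of RNA per cell.

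HSPA5 and PDIA4 rose with FFAs in HepG2, and all 10 members had higher fitted values with FFAs than without, averaged over the cultures (DNAJC3 alone turned, to -0.14, when libraries were thinned to equal depth). HSPA5 rose by 0.97 on the log2 scale (SE 0.0993, limma adjusted p = 0.0372), with the second smallest p of 14430 genes. PDIA4 read 167 and 158 CPM in mono-culture control and 219 and 284 with FFAs, then 187 and 186 in co-culture control and 509.9 and 524 with FFAs. Its FFAs libraries were above all 4 controls, and it rose by 1.04 (SE 0.126, limma adjusted p = 0.0372). Over all genes 0.0554% passed as higher, 8 of 14430, and HSPA5 and PDIA4 were 2 of those 8.

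The other 8 members did not pass this test. P4HB, the disulfide isomerase that also serves as a subunit of prolyl 4-hydroxylase, read 149 and 159 CPM in mono-culture control and 302 and 462 with FFAs, against 176 and 214 in co-culture control and 462 and 745 with FFAs. All 4 FFAs libraries exceeded all 4 controls, and the fitted change was 1.43 (SE 0.197, limma adjusted p = 0.0596). PDIA3, which pairs with CALR and CANX to fold glycoproteins, read 643, 666, 784 and 692 CPM in the controls and 973, 1008, 1475 and 1189 with FFAs. Those groups were likewise apart, with a fitted change of 0.72 (SE 0.0932, limma adjusted p = 0.0538).

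PDIA6, an isomerase known to bind the sensor IRE1, read 758 to 877 CPM in the 4 HepG2 controls and 1053 to 1632 CPM with FFAs, a fitted change of 0.66 (SE 0.0974, limma adjusted p = 0.0596). HSP90B1 read 2071 to 2342 CPM in the controls and 2532 to 3821 CPM with FFAs, a fitted change of 0.51 (SE 0.0735, limma adjusted p = 0.0596). CALR, the soluble lectin chaperone, which also holds calcium in the ER, read 623 to 719.6 CPM in the controls, with 773 and 786 in mono-culture FFAs and 1129 and 1309.6 in co-culture FFAs, and its fitted change was 0.50 (SE 0.0875, limma adjusted p = 0.0963). For these 3 genes too no FFAs library fell to the level of a control, which made 7 members without overlap (4.16% of all genes were higher in this way).

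HYOU1, CANX and DNAJC3 overlapped between FFAs and control. HYOU1 read 135 and 105 CPM in mono-culture control, 144 and 80.0 with FFAs, 123 and 109.9 in co-culture control, and 211 and 201 with FFAs. Its mono-culture libraries were mixed and the co-culture FFAs libraries, which rest on 31 and 10 reads, were the highest. CANX read 273 and 233 CPM in mono-culture FFAs but 354 and 161 in co-culture FFAs, against 124 to 190.3 CPM in controls. DNAJC3 was counted with 4 and 4 reads in the co-culture FFAs libraries, close to the floor of 3 reads, so a change in it was not detectable at this depth.

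**Figure D3:**
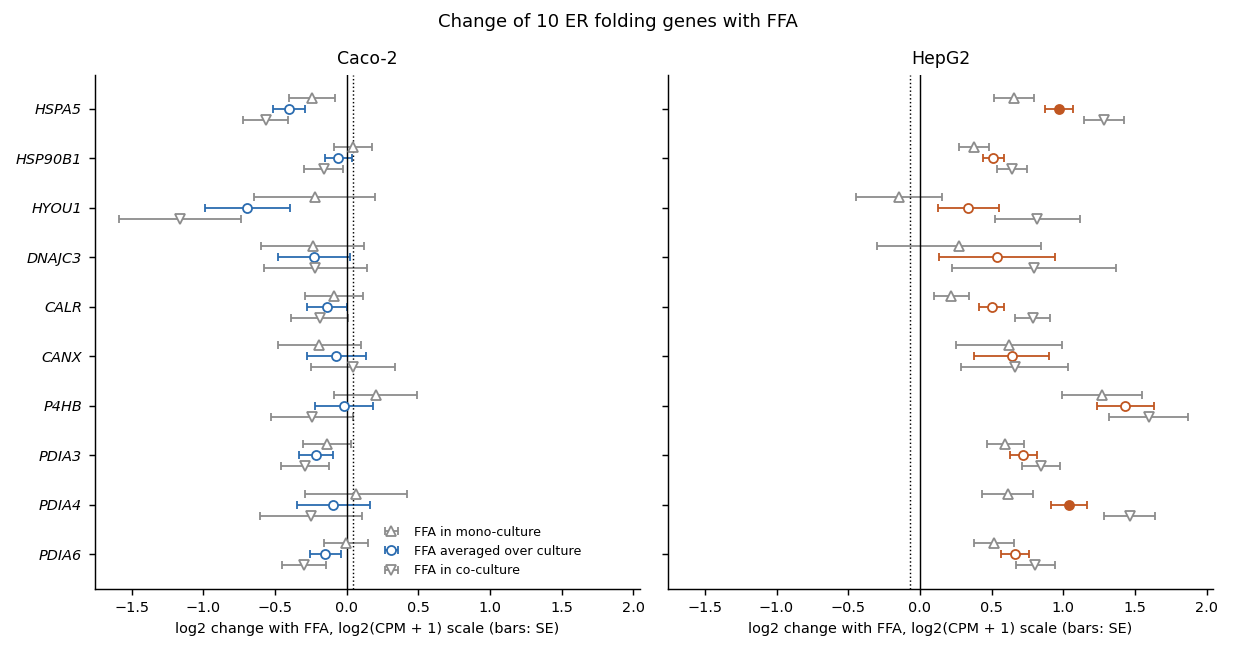
Fitted log2 change of each member with FFAs in Caco-2 and HepG2, in mono-culture (grey triangles up), averaged over culture (coloured circles) and in co-culture (grey triangles down), with standard errors as bars, filled where the limma test passed, and with the all-gene median of the averaged change as a dotted line. The averaged changes lie above 0 for all 10 members in HepG2 and below 0 for all 10 in Caco-2 (P4HB is at 0.017 there with edgeR, and DNAJC3 changes sign in both lines after thinning), and only HSPA5 and PDIA4 in HepG2 are filled.

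The median change of the members averaged over culture was 0.65, against -0.067 for all genes. At an unadjusted p under 0.05, 8 members were higher (6.76% of all genes were). With edgeR's quasi-likelihood test on the recovered reads 8 passed, all but HYOU1 and DNAJC3, where 4.91% of the genes it tested passed as higher. The adjusted p of HSPA5 and PDIA4 in limma was 0.0853 without HepG2 co-culture control replicate 2, 0.0751 without HepG2 co-culture FFAs replicate 2 and 0.18 without HepG2 mono-culture control replicate 1, and that of HSPA5 was 0.0502 without HepG2 mono-culture FFAs replicate 2. Without HepG2 co-culture FFAs replicate 1, 7 members passed, and without HepG2 co-culture control replicate 1, 4 passed.

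Taken culture by culture, the fitted FFAs change in HepG2 was larger in co-culture than in mono-culture for all 10 members in limma (with edgeR DNAJC3 was at 0.230 in mono-culture and 0.171 in co-culture), but none of these differences passed. In mono-culture HSPA5 was 1.58 times its control and P4HB 2.48 times. In co-culture HSPA5 was 2.46 times its control, P4HB 3.10 times, PDIA4 2.77 times, PDIA3 1.80 times, HYOU1 1.77 times, PDIA6 1.76 times, CALR 1.73 times and HSP90B1 1.57 times. By limma 0 members passed in mono-culture (6 at an unadjusted p under 0.05, 3.04% of all genes higher; edgeR called 1, P4HB, against 0.397% of genes). In co-culture 0 passed as well (8 at an unadjusted p under 0.05, 6.71% of all genes higher), while edgeR called 6, against 2.66% of genes. There HSPA5 and PDIA4 came closest, with changes of 1.29 (SE 0.14) and 1.47 (SE 0.178) and a limma adjusted p of 0.0510 each.

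The co-culture FFAs comparison in HepG2 had an all-gene median of -0.264 in limma. The HSPA5 change there was 1.29 in limma and 1.08 with edgeR, which rescales the libraries. The interaction of FFAs and culture passed for 0 members by limma (3 at an unadjusted p under 0.05, 2.16% of all genes higher) and for 0 by edgeR, with fitted differences of 0.63 for HSPA5, 0.85 for PDIA4, 0.57 for CALR and 0.96 for HYOU1, each in the direction of co-culture. The summed hepatocyte markers, 46419 to 57996 CPM in the other 6 HepG2 libraries, were 60274 and 76801 CPM in the co-culture FFAs libraries. Of those 11 markers, 9 were higher and 2 lower with FFAs averaged over culture, with a median change of 0.41. By limma 1 passed as higher (0.0554% of all genes did). At an unadjusted p under 0.05, 6 were higher (6.76% of all genes) and 2 lower (7.06%). With edgeR 2 passed as higher (4.91% of its genes) and 2 as lower (8.36%). The part of depth and of these markers in the member values was not tested.

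The 4 mono-culture libraries of HepG2 were all deeper than that pair. When only they were fitted, an alternative chosen after seeing the data, 2 members rose with FFAs, where 0.127% of 13389 genes did. These were HSPA5, by 0.66 (SE 0.132, limma adjusted p = 0.00735), and P4HB, by 1.27 (SE 0.199, limma adjusted p = 0.000451). PDIA3 had a change of 0.60 and a limma adjusted p of 0.0738, and PDIA4 a change of 0.61 and 0.295.

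Co-culture itself, averaged over treatment, passed for 0 members in HepG2 by limma (7 at an unadjusted p under 0.05, 3.87% of all genes higher), and edgeR called 1, PDIA4, with 0.645% of its genes. The change was 0.62 for PDIA4 and 0.42 for HSPA5 (limma adjusted p = 0.457 and 0.506). In an F-test among the 4 HepG2 groups 0 members and 0 of all genes passed in limma, with HSPA5 first in rank and at an adjusted p of 0.0919. There 8 members, all but CANX and DNAJC3, had an unadjusted p under 0.05. HYOU1 had the largest p of these, at rank 1680 of 14430 genes, and the rest ranked 47 or better. With edgeR 5 were called (HSPA5, P4HB, PDIA3, PDIA4 and PDIA6), where 8.76% of its genes passed. Under the rule of an unadjusted p with a minimum fold change that the study used to choose genes, 7 members were selected in HepG2, all but HYOU1, CANX and DNAJC3, and 14.6% of all genes were selected with them. That rule was applied here with an ordinary F-test on log2 of CPM + 1. It selected more genes in each line than the study reported for its longer treatment.

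In Caco-2 no member passed, and all 10 fitted changes with FFAs averaged over culture were below 0, though P4HB was at 0.017 with edgeR and DNAJC3 at 1.34 after thinning to equal depth. By limma 0 passed, 2 had an unadjusted p under 0.05 (1.73% of all genes were lower in that way), and edgeR called 0 (0.0435% of its genes). HSPA5 had the smallest p of the members, with a change of -0.40 (SE 0.112, limma adjusted p = 0.829). HYOU1 read 24.6 and 29.4 CPM in mono-culture control, 27.2 and 19.3 with FFAs, 21.8 and 25.4 in co-culture control, and 13.3 and 7.39 with FFAs. Its co-culture FFAs libraries held 13 and 6 reads and were the lowest of the 8, and its averaged change was -0.69 (SE 0.299). The median over members was -0.14, against 0.042 for all genes, and 0 members were apart between all FFAs and all control libraries (0.744% of all genes were lower without overlap).

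The fitted changes in Caco-2 were lower in co-culture than in mono-culture for 8 of 10 members, without a passing difference. Within co-culture, HSPA5, HYOU1, DNAJC3, PDIA3 and PDIA6 had both FFAs libraries below both controls, 5 of 10 members against 14.9% of all genes, and 0 passed by limma (2 at an unadjusted p under 0.05, 2.42% of all genes) or by edgeR (0.109% of its genes). PDIA3 read 394 and 328 CPM in co-culture control and 323 and 267 with FFAs, and PDIA6 read 363 and 336 against 312 and 259. Within mono-culture HSPA5 alone was apart in this way (10.3% of all genes were), at a change of -0.24 (SE 0.159).

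HSP90B1 stayed between 444 and 584 CPM in all 8 Caco-2 libraries, CALR between 176 and 277, and CANX between 50.9 and 97.1, with control and FFAs libraries mixed. P4HB spanned 59.1 to 142 CPM, and its highest library, a mono-culture control, had a partner at 74.0 CPM. PDIA4 spanned 22.2 to 39.6 CPM and DNAJC3 19.7 to 31.7 CPM.

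Co-culture averaged over treatment went with lower HSPA5 in Caco-2 at a change of -0.45 (SE 0.112, limma adjusted p = 0.108), where the median of all genes was 0.143. By limma 0 members passed as lower, as 0.136% of all genes did (3 lower at an unadjusted p under 0.05, 3.37% of all genes), and edgeR called 2, HSPA5 at -0.54 (adjusted p = 0.0039) and P4HB at -0.61 (adjusted p = 0.0308), where it called 4.31% of the genes it tested as lower. The summed hepatocyte markers in Caco-2 were 6153 to 7074 CPM in mono-culture and 7784 to 7811 CPM in co-culture, and their part in these values was not tested. In an F-test among the 4 Caco-2 groups 0 members passed in limma, where 0.155% of all genes passed after adjustment. There 2 members, HSPA5 and HYOU1, had an unadjusted p under 0.05, at ranks 66 and 686 of 15454 genes. HSPA5 had a limma adjusted p of 0.17 there and was the 1 member that edgeR called (adjusted p = 0.00254, with 5.09% of its genes), and also the 1 member selected by the study's rule, along with 8.81% of all genes.

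The change of HSPA5 with FFAs differed between the lines. In the fit over 16 libraries the HepG2 change exceeded the Caco-2 change by 1.37 on the log2 scale (SE 0.144, limma adjusted p = 0.00261), the smallest p of 17544 genes. PDIA3 passed as well, with a difference of 0.93 (SE 0.155, limma adjusted p = 0.0452). These were 2 of 10 members, where 0.057% of all genes passed in that direction. The other 8 did not pass, although all were positive (DNAJC3 was at -1.48 after thinning), with 0.81 for PDIA6 (limma adjusted p = 0.0559), 0.57 for HSP90B1 (0.0904), 1.45 for P4HB (0.0958) and 1.13 for PDIA4 (0.126). The median over members was 0.87, against -0.130 for all genes. With edgeR 4 passed (HSPA5, P4HB, PDIA3 and PDIA6), where 1.29% of genes did.

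For HSPA5 the limma adjusted p was 0.0527 without HepG2 co-culture control replicate 2, and for PDIA3 it was 0.144 without that library and 0.129 without HepG2 mono-culture control replicate 1. Leaving out HepG2 co-culture FFAs replicate 1 gave 7 members past the threshold, and leaving out HepG2 co-culture control replicate 2 gave 0. In the mono-culture libraries alone the difference was 0.90 for HSPA5 (SE 0.198, unadjusted p = 0.000851, limma adjusted p = 0.777) and 0.73 for PDIA3. There 0 members and 0 of 16047 genes passed, with 5 members at an unadjusted p under 0.05 (5.92% of all genes in either direction).

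Compared with HSPA5 in the same library, many genes fell with FFAs in HepG2, and HSP90B1 and CALR were among them. When the log2 level of HSPA5 was subtracted from that of every gene, HSP90B1 fell by 0.46 with FFAs in HepG2 (SE 0.125, limma adjusted p = 0.0246) and CALR by 0.47 (SE 0.152, limma adjusted p = 0.0441). In the same comparison 25.4% of all genes fell relative to HSPA5, and 2 of 9 members is near that share. With a pseudocount of 0.1 HSP90B1 and PDIA6 passed and CALR did not, and with a filter of 10 CPM HSP90B1 alone passed. The log2 ratio of HSP90B1 to HSPA5 was 0.70 and 0.74 in mono-culture control, 0.68 and 0.20 with FFAs, 0.61 and 0.83 in co-culture control, and -0.01 and 0.18 with FFAs. HSP90B1 thus had more reads than HSPA5 in 7 of 8 HepG2 libraries and slightly fewer in 1 of the co-culture FFAs libraries.

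PDIA4 had the fitted change relative to HSPA5 closest to 0 of the 9 members in HepG2. The log2 ratio read -2.99 and -2.96, then -3.09 and -2.95 with FFAs in mono-culture, and -2.96 and -2.82, then -2.92 and -2.50 with FFAs in co-culture. Only the last library stood out, and it holds 26 reads of PDIA4. The fitted change of the ratio was 0.07 (SE 0.169, limma adjusted p = 0.764), while P4HB had 0.46 (SE 0.239, limma adjusted p = 0.171). The remaining members had ratios that were lower with FFAs without passing, at -0.63 for HYOU1 (SE 0.255), -0.44 for DNAJC3, -0.33 for CANX, -0.31 for PDIA6 and -0.25 for PDIA3. HSPA5 took 20.3% to 21.5% of the members' reads in HepG2 controls, 21.6% and 25.0% in mono-culture FFAs and 28.6% and 25.1% in co-culture FFAs.

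In Caco-2 the ratios of 8 members had positive changes without passing. By limma 0 of 9 members passed (1.97% of all genes passed as higher than HSPA5), and HYOU1 alone had a negative change, -0.29. HSP90B1, DNAJC3, CALR, CANX, PDIA3 and PDIA6 thus differed in sign from HepG2, whereas P4HB, PDIA4 and HYOU1 did not. The log2 ratio of HSP90B1 to HSPA5 was 0.68 and 0.87 in mono-culture control, 1.18 and 0.95 with FFAs, 1.16 and 0.91 in co-culture control, and 1.56 and 1.32 with FFAs, a fitted change of 0.35 (SE 0.132, limma adjusted p = 0.135). HSPA5 took 16.3% and 15.8% of the members' reads in mono-culture control and 9.68% and 11.8% in co-culture FFAs, the highest and the lowest pairs of the line.

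**Figure D4:**
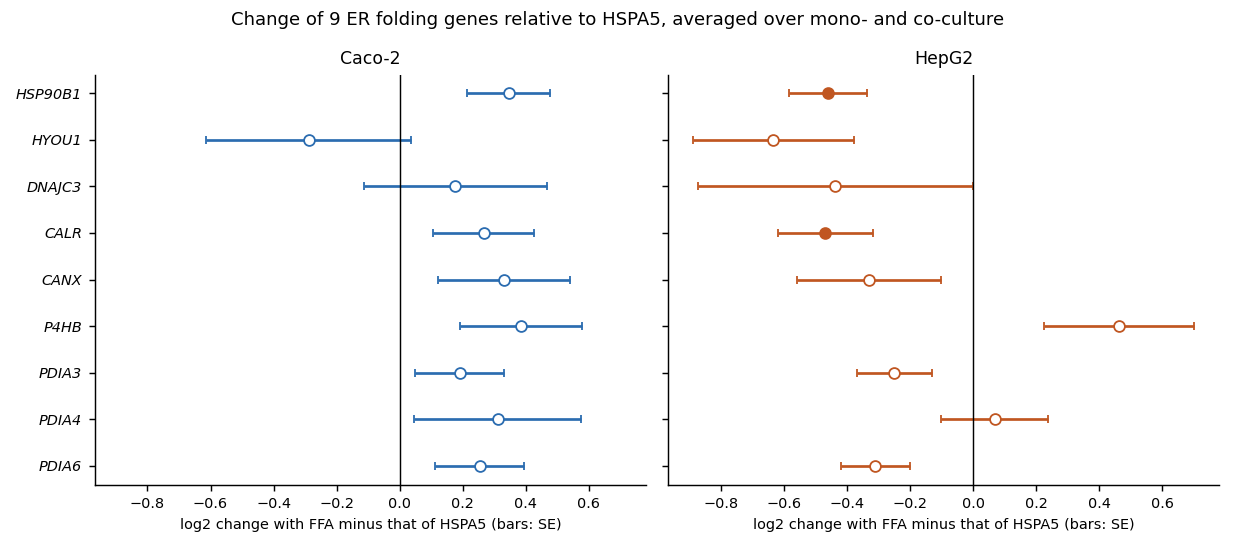
Fitted log2 change with FFAs of each of the 9 other members minus that of HSPA5, averaged over culture, by line, with standard errors as bars and points filled where the limma test passed. In HepG2 HSP90B1 (-0.46) and CALR (-0.47) are filled and PDIA4 sits at 0.07, whereas in Caco-2 no point is filled and HYOU1 alone lies below 0, at -0.29.

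Each of 3 members has a close relative in the cytosol, a compartment served by the heat shock response rather than by the unfolded-protein response. HSPA8, the constitutive cytosolic Hsp70, read 267 and 206 CPM in HepG2 mono-culture control, 311 and 382 with FFAs, 281 and 226 in co-culture control and 381 and 564 with FFAs. These libraries were apart between FFAs and control too, and the change of HSPA5 relative to HSPA8 was 0.26 (SE 0.232, limma adjusted p = 0.513). In Caco-2 HSPA8 was lowest in co-culture FFAs, at 634 and 658 CPM against 939.7 to 1278 CPM elsewhere, and HSPA5 relative to it changed by 0.10. HSP90B1 relative to HSP90AB1, the constitutive cytosolic Hsp90, changed by 0.39 in HepG2 (SE 0.0755, limma adjusted p = 0.117, with 0.0347% of all genes passing) and 0.13 in Caco-2.

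HYOU1 relative to HSPH1, its cytosolic counterpart among nucleotide exchange factors, fell by 1.10 with FFAs in HepG2 (SE 0.265, limma adjusted p = 0.0101), as 46% of all genes changed relative to HSPH1. HSPH1 itself read 6.97 and 7.82 CPM in mono-culture control, 16.5 and 18.2 with FFAs, 9.05 and 11.6 in co-culture control and 34.0 and 40.3 with FFAs. These values rest on 3 and 8 reads in mono-culture control and on 5 and 2 reads in co-culture FFAs, at or near the floor of 3 reads, so the size of this ratio change is not resolved at this depth. The call was absent without HepG2 co-culture control replicate 1 and without HepG2 mono-culture control replicate 1, and without HepG2 co-culture FFAs replicate 1 there were 2 calls. Between the lines in mono-culture control, counterparts of the members outside the ER went against the ER genes. Of 7 such genes 4 were lower in HepG2 (5.77% of all genes were), with HSPA8 lower by 2.35 and HSPH1 by 3.28 on the log2 scale.

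Of 28 other ER folding genes in HepG2, 0 passed by limma with FFAs averaged over culture (9 higher at an unadjusted p under 0.05, as 6.76% of all genes were), 21 had higher and 7 lower fitted values, their median was 0.42, and edgeR called 5 of the 20 it tested, against 4.91% of all it tested. DNAJB9, an ER co-chaperone that is a target of XBP1, read 20.9 and 27.4 CPM in mono-culture control, 40.0 and 72.8 with FFAs, 19.9 and 23.2 in co-culture control and 95.2 and 101 with FFAs. It was apart in both cultures at a change of 1.64 without passing (limma adjusted p = 0.0912). Its co-culture FFAs values rest on 14 and 5 reads. SDF2L1 and DNAJB11, partners of HSPA5, had changes of 0.52 (0.249) and 0.43 (0.484).

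Among 12 sensors and factors of the unfolded-protein response 0 passed by limma (2 higher at an unadjusted p under 0.05, against 6.76% of all genes, and 0 of 6 by edgeR), 9 had higher fitted values and the median was 0.24. XBP1 read 54.7 to 71.9 CPM in the 4 controls, 73.0 and 113 in mono-culture FFAs and 116 and 161 in co-culture FFAs, a change of 0.84 (limma adjusted p = 0.200). The co-culture FFAs values of XBP1 rest on 17 and 8 reads. ATF4 and DDIT3, of the PERK branch, had 0.29 (0.519) and 0.52 (0.488). HERPUD1, an ER-associated degradation gene, rose by 1.73 (SE 0.194, limma adjusted p = 0.0372). The 7 counterparts of members outside the ER all had higher fitted values, with a median of 0.71. By limma 0 of them passed (5 higher at an unadjusted p under 0.05, against the same 6.76%), and edgeR called 1, against 4.91%. In Caco-2 the medians of the same lists were 0.035, -0.091 and -0.310, and 0 genes of any of them passed by limma with FFAs averaged over culture, against 0, 2 and 4 lower at an unadjusted p under 0.05 (1.73% of all genes) and 0, 0 and 1 lower by edgeR (0.0435%).

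**Figure D5:**
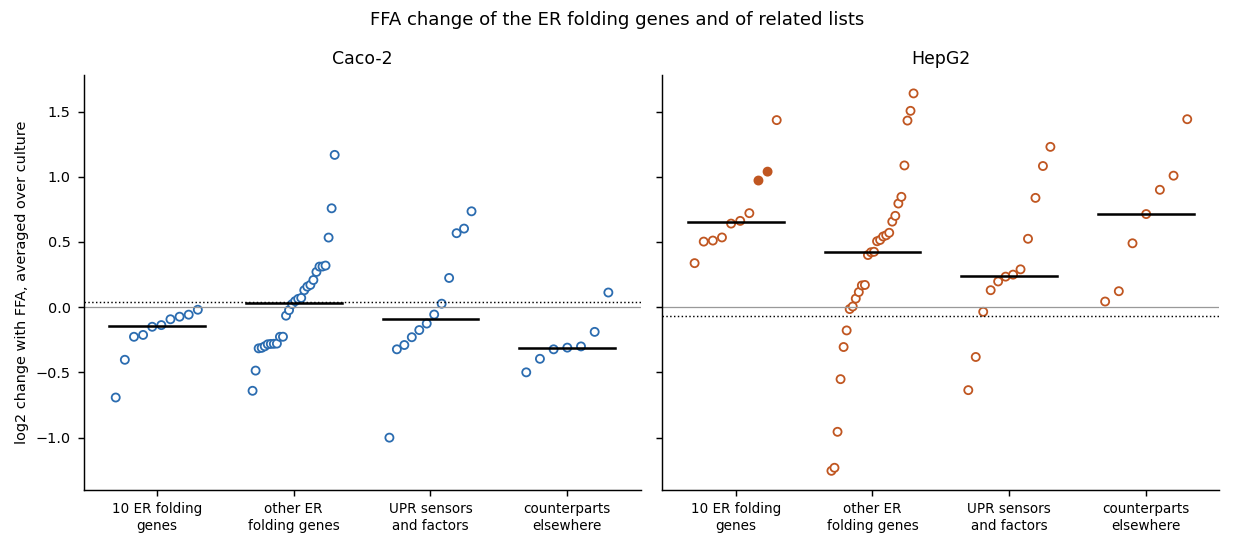
Fitted log2 change with FFAs averaged over culture for the 10 members, 28 other ER folding genes, 12 unfolded-protein response (UPR) sensors and factors and 7 counterparts outside the ER, by line. Each gene has a point (filled where limma passed), with a bar at the list's median and the all-gene median dotted. In HepG2 the medians are 0.65, 0.42, 0.24 and 0.71 and in Caco-2 they are -0.14, 0.035, -0.091 and -0.310.

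Likeness was the root mean square difference of the log2 values over the 8 libraries of a line, each gene centred on its own mean, among genes whose mean reached 50 CPM. In HepG2 the closest of 2028 genes were KRT18 (0.0874), ASNS (0.125), AC079781.5 (0.128), AC091167.2 (0.131) and NGRN (0.132), and members followed with PDIA4 at rank 8, PDIA3 at 10 and PDIA6 at 18. HSP90B1 came at rank 104 and P4HB at 331. In Caco-2 the closest of 1922 genes were S100A16 (0.0949), SHMT2 (0.119), CACYBP (0.128), HSPA8 (0.131) and PTGES3 (0.136), and the nearest member was HSP90B1 at rank 211. All these values share libraries and depths, and they describe likeness over 8 libraries only.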

How the data were processed

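Per the labels, polyadenylated RNA was made into PCR-amplified barcoded cDNA and sequenced on an Oxford Nanopore device. The submitters' processing notes name minimap2 2.22 and GRCh38, whereas the counter and annotation are not given in the sources used here. The study's methods describe both Nanopore and short-read mRNA sequencing, and the labels place these libraries with the first. The deposited values are named TPM by the authors, but within a library every low value (100%) was a whole multiple of 1 step within 0.1 read, so they were read as CPM and whole reads were recovered. The design had been written for either unit.

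Members and lists were chosen with earlier results of these data known. For each line, genes whose mean reached 1 CPM in any group (15454 in Caco-2 and 14430 in HepG2) were fitted on log2 of CPM + 1 by limma 3.58.1 (R 4.3.3, trended prior), and p-values were Benjamini-Hochberg adjusted over all genes at a threshold of 0.05. One fit over 16 libraries compared the lines. edgeR 4.0.16 was run on recovered reads. Scripts were tested on simulated data. Named genes were all members, the first 8 list genes past the threshold, SDF2L1, DNAJB9, DNAJB11, XBP1, ATF4, DDIT3, HSPA8, HSP90AB1, HSPH1, HERPUD1 and the 5 genes most like HSPA5 in each line. Positions and exons are from GENCODE 44. Alternatives were other pseudocounts, filters, scalings, priors, thinning, a replicate block and leaving out each library. Deviations of same-numbered replicates of different groups correlated across all genes at a mean r of 0.012 for Caco-2 libraries and 0.00332 for HepG2 libraries. Over genes of at least 100 CPM it was 0.151 (-0.0172 to 0.291 over 6 group pairs) and 0.0529 (-0.103 to 0.121), so not every pair of groups moved together.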

Additional observations from a re-analysis of the deposited data

Results flagged for a closer look

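For 4 genes the change with FFAs differed between the lines by a test of that difference, in the limma fit over 16 libraries with Benjamini-Hochberg adjustment. HSPA5 differed by 1.37 on the log2 scale (adjusted p = 0.00261) and PDIA3 by 0.93 (adjusted p = 0.0452), HepG2 above Caco-2 in both. Among the comparison genes HERPUD1 differed by 2.14 (adjusted p = 0.0106) and HSPA8 by 1.21 (adjusted p = 0.0462), also with HepG2 above Caco-2. In HepG2 every FFAs library exceeded every control library for all 4 genes. In Caco-2 the co-culture FFAs libraries were the lowest of the line for HSPA5, HERPUD1 and HSPA8, with values of 71.8 and 51.7 CPM for HERPUD1 and 634 and 658 CPM for HSPA8.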

How the results depend on the processing

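Counts below are members past the threshold of 0.05. With FFAs averaged over culture in HepG2 (2 members), there were 0 with a pseudocount of 0.1, a constant prior variance or thinning to the shallowest library, 1 with median-ratio rescaling, 5 with a replicate block, 6 with a filter of 10 CPM, 7 with quantile normalization and 8 with edgeR. The 1 with median-ratio rescaling was P4HB, so neither HSPA5 nor PDIA4 passed with that setting. In co-culture (0) there were 2 with a pseudocount of 0.1, no filter or a filter of 10 CPM, 7 with quantile normalization, 1, HSP90B1, after thinning and 6 with edgeR. In mono-culture (0) there was 1, P4HB, with edgeR. Among the 4 HepG2 groups (0) there were 7 with quantile normalization and by the study's rule, 2 after thinning and 5 with edgeR, and for co-culture averaged over treatment (0) 2 with quantile normalization and 1 with edgeR. Relative to HSPA5 (2) there were 1 with a filter of 10 CPM, 5 with quantile normalization and 0 with a constant prior variance or thinning, and relative to the cytosolic counterparts (1) 2 with quantile normalization and 0 with a constant prior variance or thinning.

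For the difference between the lines (2) there were 4 with a pseudocount of 0.1, quantile normalization, a replicate block or edgeR, 1 with no filter or median-ratio rescaling, and 0 with a constant prior variance, thinning or mono-culture libraries only, the last chosen after seeing the data. HepG2 against Caco-2 (7) gave 4 after thinning. Among the 4 Caco-2 groups (0) there was 1, HSPA5, with a filter of 10 CPM, a replicate block, edgeR or the study's rule, and 1, PDIA4, after thinning. Co-culture in Caco-2 (0) gave 1, HSPA5, with a filter of 10 CPM, quantile normalization or a replicate block and 2 with edgeR. FFAs in co-culture (0) gave 1, PDIA4, after thinning. The replicate block changed no other count by over 1.5 times, and since replicates share only a number, it is given here alone. The causes of these moves were not tested.

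Leaving out 1 library at a time gave 0 to 7 for FFAs averaged over culture, FFAs in co-culture and among the 4 groups in HepG2 and for the difference between the lines, 0 to 4 relative to HSPA5, 0 to 2 relative to the counterparts and for co-culture in HepG2, 0 to 1 for the interaction there, 7 to 8 for HepG2 against Caco-2, and 0 to 0 in Caco-2. Where this left 1 library in a group, it was assumed to vary like the other groups.

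Some fitted changes of members that had not passed changed sign. In Caco-2 mono-culture HSP90B1 was at -0.0029 with quantile normalization, -0.042 with median-ratio rescaling, -0.048 after thinning and -0.030 with edgeR, PDIA4 at -0.055 with quantile normalization and -0.020 with median-ratio rescaling, PDIA6 at 0.32 and DNAJC3 at 0 after thinning. In Caco-2 co-culture DNAJC3 was at 2.68 and PDIA3 at 0.26 after thinning and CANX at -0.026 with edgeR. Averaged over culture DNAJC3 was at 1.34 after thinning and P4HB at 0.017 with edgeR. After thinning DNAJC3 was at -0.77 in HepG2 mono-culture, -0.14 averaged over culture and -1.48 for the difference between the lines. With 1 library left out, the ranges that crossed 0 were, in Caco-2 mono-culture, -0.46 to 0.015 for HYOU1, -0.26 to 0.67 for P4HB, -0.29 to 0.021 for PDIA3, -0.18 to 0.31 for PDIA4 and -0.094 to 0.087 for PDIA6. In Caco-2 co-culture they were -0.47 to 0.097 for CALR, -0.42 to 0.50 for CANX and -0.56 to 0.060 for PDIA4, and averaged over culture -0.12 to 0.0030 for HSP90B1, -0.28 to 0.0048 for CALR, -0.30 to 0.16 for CANX, -0.25 to 0.21 for P4HB and -0.25 to 0.062 for PDIA4. In HepG2 mono-culture the range was -0.56 to 0.27 for HYOU1. Depth limits DNAJC3, HYOU1 and CANX most, with 4 to 52 reads in the HepG2 co-culture FFAs libraries.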

Other observations

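The ER folding genes outside the 10 members also separated the lines in mono-culture control. Of 28 such genes 8 were higher in HepG2 (4.78% of all genes were) and 1 lower (5.77%) in the limma fit over 16 libraries. PPIB, an ER prolyl isomerase, was higher by 2.16 on the log2 scale, MANF, a secreted ER stress protein that binds HSPA5, by 2.70, DNAJC10, a disulfide reductase, by 3.11, and SDF2L1 by 2.31. SERPINH1, the collagen chaperone, was lower by 3.30. Among the unfolded-protein response genes DDIT3 was lower by 1.59 and PPP1R15A, which brings a phosphatase to eIF2 alpha, was lower by 3.55. MBTPS1, the protease that cleaves ATF6, was higher by 2.02, but its Caco-2 mono-culture control value rests on 1 and 5 reads. Its other Caco-2 groups averaged 13.8 to 17.8 CPM, against 19.9 to 25.1 CPM in the HepG2 groups.

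Relative to HSPA5, PPIB fell by 0.99 with FFAs in HepG2, PRDX4, a peroxiredoxin of the ER, by 1.28, and ERP29 by 0.91. As 25.4% of all genes fell in this comparison, these falls are not particular to the ER folding genes. They are examples, given without a count over the list, and PRDX4 rests on 52 and 8 reads in the co-culture FFAs libraries. HERPUD1 rose against HSPA5 by 0.76 (limma adjusted p = 0.0421). In Caco-2 PPIB and PRDX4 rose against HSPA5 by 0.47 and 0.61, as did 1.97% of all genes.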
